A study of Homo sapiens with 6 samples.

Results

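The CSMD genes CSMD1, CSMD2 and CSMD3 were examined for nuclear matrix attachment in H1 human pluripotent stem cells, an embryonic stem cell line. Matrix-attached regions that overlap the body of one of these genes by at least 1 bp were taken as members, with gene bodies from the RefSeq gene table of GRCh38.p14. These were 80 of the 115751 regions of the series, of which 27 of 40106 came from the untreated list, 29 of 39368 from the hairpin control list and 24 of 36277 from the knockdown list. The method, MAR-seq, sequences the DNA that is left on the nuclear matrix after detergent extraction, formaldehyde fixation and digestion with restriction enzymes, a treatment that all groups shared. The 6 samples formed 3 groups with 2 samples each, all of H1 cells in feeder-free culture. They were untreated (hPSC), carried a hairpin control named for luciferase (shLUC), or carried a hairpin against HNRNPU (shHNRNPU), whose product is a nuclear matrix protein with RNA- and DNA-binding parts. The labels give no time after hairpin delivery, no number of clones and no age of the cultures. Only 1 list was at hand for each group, so no value below has a spread between samples and no test between groups was possible. All regions were 400 bp wide and carried a score of 0, so a region is either listed or not, and read depth is unknown. The lists hold no expression values, so neither the cell type nor the knockdown could be checked in them.

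The CSMD proteins are very large membrane proteins whose outer part is a chain of CUB and sushi domains, the latter being the domain of many complement regulators. They are best known from the brain, where CSMD1 has been described as an inhibitor of complement and CSMD3 as a regulator of dendrites. Their genes are among the longest in the human genome because of very long introns. Matrix attachment regions are often rich in A and T and are thought to mark the bases of chromatin loops.

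CSMD2 lies on chromosome 1 from 33513998 to 34165842 and spans 651845 bp, the 190th longest of the 315 protein-coding genes of at least 500 kb. The promoter table places it on the minus strand, so its start is at the high-coordinate end. The start of CSMD2 was looked at first, to show what the enzymes could cut. Promoter windows of CSMD1 and CSMD3 are not printed here. RefSeq promoter windows of 300 bases, which end just after a start, are printed below for both CSMD2 starts, which no region of the 3 lists touched, and for the starts of TMEM35B and ZSCAN20, which lie in the 1 Mb windows next to CSMD2 and were covered by a region in at least 2 lists. TMEM35B and ZSCAN20 were picked after their coverage was seen. The starts of NHSL3, HPCA and ZMYM1 in these windows met the same rule and are not printed. Each sequence is read 5′ to 3′ on the gene's strand of GRCh38.p14, and capitals mark the recognition sites of the enzymes used (MspI CCGG, HaeIII GGCC, RsaI GTAC, AluI AGCT, BamHI GGATCC and PvuII CAGCTG). All of these sites read the same on both strands, and each PvuII site holds an AluI site.
CSMD2, outer start, chr1:34165793-34166092, minus strand: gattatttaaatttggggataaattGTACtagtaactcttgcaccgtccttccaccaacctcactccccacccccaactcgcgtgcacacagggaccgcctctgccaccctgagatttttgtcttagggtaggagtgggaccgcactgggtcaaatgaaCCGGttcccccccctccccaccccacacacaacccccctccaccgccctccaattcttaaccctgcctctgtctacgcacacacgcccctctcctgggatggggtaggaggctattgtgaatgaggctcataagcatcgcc
CSMD2, inner start, chr1:34165181-34165480, minus strand: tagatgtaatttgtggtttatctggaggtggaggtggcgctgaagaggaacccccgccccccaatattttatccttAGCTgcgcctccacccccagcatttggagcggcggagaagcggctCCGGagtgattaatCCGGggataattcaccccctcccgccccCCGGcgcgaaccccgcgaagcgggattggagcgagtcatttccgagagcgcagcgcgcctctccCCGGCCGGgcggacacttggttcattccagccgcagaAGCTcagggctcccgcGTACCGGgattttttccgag
TMEM35B, chr1:34985298-34985597, minus strand: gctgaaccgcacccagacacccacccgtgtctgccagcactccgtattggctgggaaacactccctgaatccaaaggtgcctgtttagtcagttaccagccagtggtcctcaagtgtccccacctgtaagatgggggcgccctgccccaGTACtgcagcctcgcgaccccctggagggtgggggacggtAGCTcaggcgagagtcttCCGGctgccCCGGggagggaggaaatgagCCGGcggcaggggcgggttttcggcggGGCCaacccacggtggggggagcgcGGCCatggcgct
ZSCAN20, chr1:33472395-33472694, plus strand: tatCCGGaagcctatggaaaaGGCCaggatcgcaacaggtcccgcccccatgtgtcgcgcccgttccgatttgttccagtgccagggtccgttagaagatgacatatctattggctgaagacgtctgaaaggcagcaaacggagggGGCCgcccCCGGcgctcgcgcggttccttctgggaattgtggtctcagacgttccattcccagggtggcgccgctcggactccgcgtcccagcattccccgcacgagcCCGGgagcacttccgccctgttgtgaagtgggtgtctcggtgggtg

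The outer CSMD2 window held 1 MspI and 1 RsaI site, and 43.7% of its bases were A or T. The inner window held 6 MspI, 1 HaeIII, 1 RsaI and 2 AluI sites, or 10 sites of 4 bases, with 38.0% A or T. Over 35116 promoter windows of the same length the median was 6 such sites. Of these windows 8.42% had fewer than the 2 of the outer CSMD2 window, and 78.8% had fewer than the 10 of the inner one. Sites of MspI occurred in 63.1% of these windows, of HaeIII in 79.0%, of RsaI in 29.8%, of AluI in 74.1%, of BamHI in 6.83% and of PvuII in 17.9%. The TMEM35B window, of which the same 233 bases lay under a region in all 3 lists, held 7 sites of 4 bases. The ZSCAN20 window held 5, and 239 of its bases lay under a region in hPSC and shLUC, while the nearest shHNRNPU region was 11.9 kb away. The windows of NHSL3, HPCA and ZMYM1, which are not printed, held 18, 6 and 5 such sites. Of their bases 76, 300 and 300 lay under a shHNRNPU region, so ZSCAN20 alone among these neighbours had none. At CSMD2 itself the nearest region was in hPSC, 1.86 kb from the inner window, at chr1:34162919-34163318. The nearest shHNRNPU region lay 22.4 kb from the outer window and the nearest shLUC region 72.3 kb from the inner window. A site marks only where an enzyme could cut, and these counts were not related to the presence of regions.

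The larger genes lie on chromosome 8. CSMD1 runs from 2935361 to 4994914 and spans 2059554 bp, which made it the 6th longest of the genes of at least 500 kb. CSMD3 lies far away on the same chromosome, from 112222928 to 113436939, and spans 1214012 bp (the 39th longest). The gene table gives bounds but no exons, so whether a region lies in an exon or an intron is not analysed here. The strand of both genes is not used here, and positions within a gene are counted from its low-coordinate end.

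The 3 genes differed in how densely they were held. CSMD2 had 2.90 to 5.12 times as many regions per Mb as its longer relatives over the 3 lists. It held 11 regions in hPSC, 13 in shLUC and 10 in shHNRNPU, or 16.9, 19.9 and 15.3 regions per Mb. CSMD1, which is more than 3 times longer, held 12 regions in hPSC, 11 in shLUC and 9 in shHNRNPU, or 5.83, 5.34 and 4.37 per Mb. CSMD3 held 4 regions in hPSC and 5 in each hairpin list, or 3.29 per Mb in hPSC and 4.12 in shLUC and shHNRNPU. For comparison, the whole of chromosome 8 held 13.0, 13.7 and 12.4 regions per Mb in hPSC, shLUC and shHNRNPU, and chromosome 1 held 14.6, 14.2 and 13.2. Thus CSMD2 was above and both chromosome 8 genes were below the density of their own chromosome in all 3 lists.

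These counts are small, and their counting error was taken from exact 95% binomial (Clopper-Pearson) intervals, which treat regions as independent and do not cover variation between cultures. The chromosome's density lay above the interval of CSMD1 and of CSMD3 in each list, but within that of CSMD2, which was 8.43 to 30.2 per Mb in hPSC and 7.36 to 28.2 in shHNRNPU, so the higher value of CSMD2 was within counting error. In shLUC the interval of the density was 2.67 to 9.55 per Mb for CSMD1, 10.6 to 34.1 for CSMD2 and 1.34 to 9.61 for CSMD3. The density of CSMD2 was 3.73 times that of CSMD1 in shLUC (interval 1.54 to 9.21), 2.90 times in hPSC (interval 1.16 to 7.17) and 3.51 times in shHNRNPU (interval 1.28 to 9.76). Against CSMD3 it was 4.84 times higher in shLUC (interval 1.62 to 17.4), 5.12 times in hPSC (interval 1.52 to 22.1) and 3.73 times in shHNRNPU (interval 1.16 to 13.9). CSMD1 and CSMD3, the neighbours in this order, could not be separated. Their density ratio was 1.77 in hPSC (interval 0.536 to 7.52), 1.30 in shLUC (interval 0.415 to 4.76) and 1.06 in shHNRNPU (interval 0.319 to 4.03). Other measures that go with gene density differed in the same direction, since the 1 Mb windows next to CSMD2 touched 29 protein-coding genes, those next to CSMD1 touched 7 and those next to CSMD3 touched 0. Their part in the difference was not tested.

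**Figure D1:**
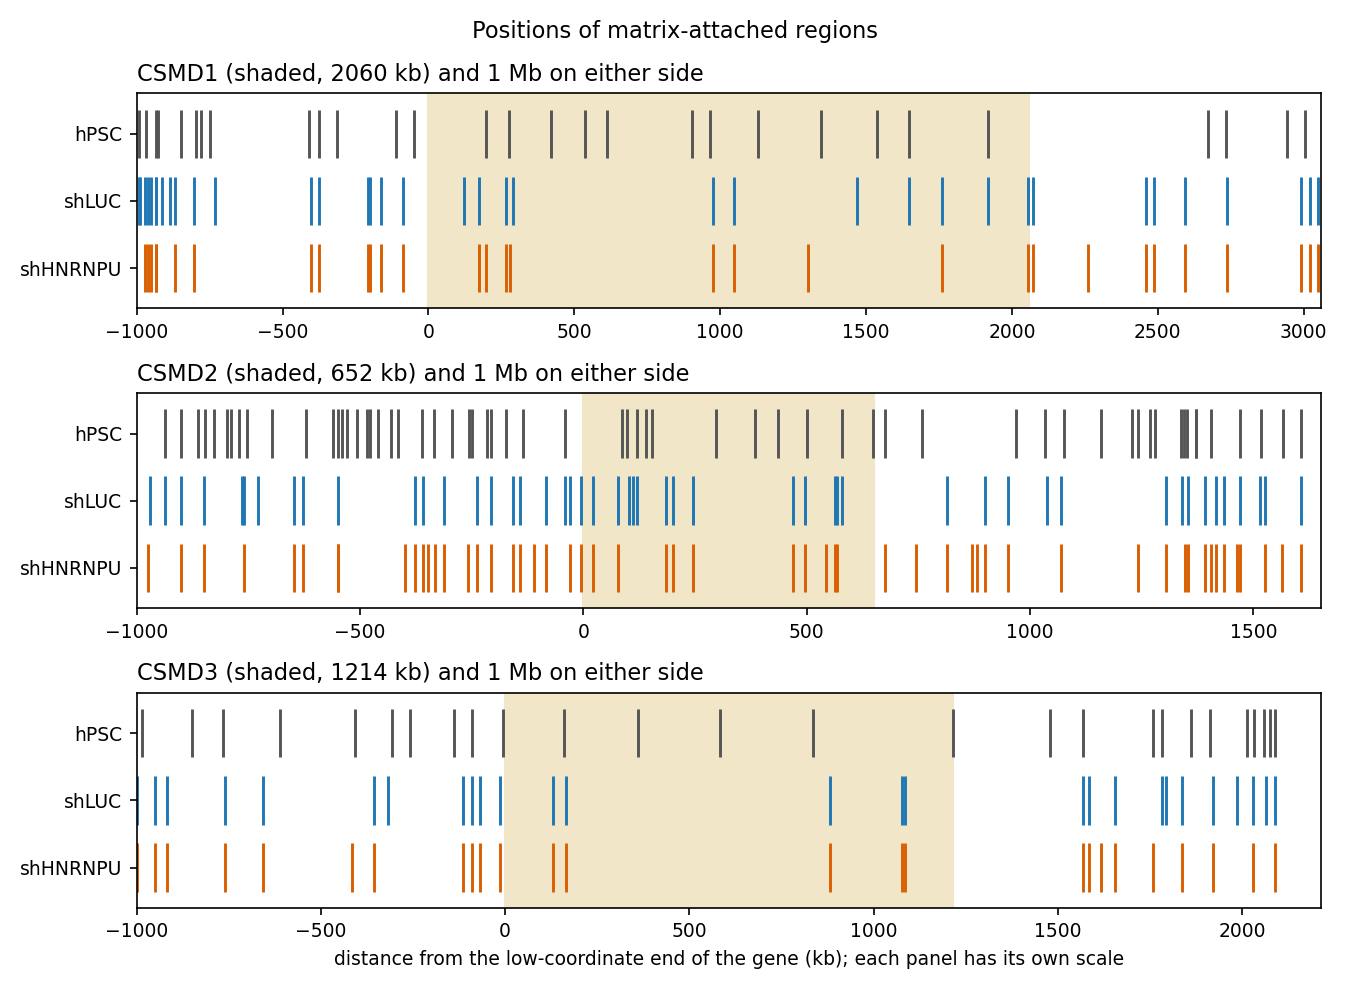
Positions of matrix-attached regions in hPSC, shLUC and shHNRNPU along CSMD1, CSMD2 and CSMD3 (shaded) and 1 Mb on either side, in kb from the low-coordinate end of each gene; each tick is 1 region of 400 bp, drawn wider than to scale. The shLUC and shHNRNPU ticks of CSMD3 coincide at all 5 positions, and both lists leave a stretch of 717.1 kb of that gene empty.

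Each gene was next compared with the 1 Mb windows next to it, which share its part of the chromosome. CSMD3 was less dense than its surroundings in each list, by 3.34-fold in hPSC, 2.67-fold in shLUC and 2.43-fold in shHNRNPU. The hPSC list had 10 regions in its low window and 12 in its high window against 4 in the gene, so the windows held 11.0 regions per Mb. Of the hPSC regions in gene and windows together, 15.4% lay in the gene (interval 4.36 to 34.9%), which makes up 37.8% of the length. In shLUC the windows held 11 and 11 regions and the share in the gene was 18.5% (interval 6.30 to 38.1%). In shHNRNPU they held 11 and 9 regions against 5 in the gene, and the interval of the share was 6.83 to 40.7%. The gene was less dense in all 3 lists, but the share of length lay outside the interval in hPSC only, and no longer with windows of 500 kb or 2 Mb or the low window alone.

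CSMD1 made up 50.7% of the length of gene and windows. Its share of regions was 29.7% in shLUC (interval 15.9 to 47.0%) and 29.0% in shHNRNPU (interval 14.2 to 48.0%), so the windows were 2.43 and 2.52 times denser than the gene. In hPSC the share was 41.4% (interval 23.5 to 61.1%), which held the share of length. The sides were unequal. The low window, which holds ARHGEF10, KBTBD11 and MYOM2, had 13 regions in hPSC, 18 in shLUC and 13 in shHNRNPU, while the high window had 4, 8 and 9. With the high window alone, or with windows of 500 kb, the interval held the share of length in all 3 lists, and in hPSC the gene was then denser than the window. In the hairpin lists the gene stayed less dense than the high window, with a log2 density ratio of -0.58 in shLUC and -1.04 in shHNRNPU. With windows of 2 Mb the log2 ratio was -1.24 in hPSC, -1.51 in shLUC and -1.52 in shHNRNPU, and the share of length lay outside the interval in all 3 lists. KBTBD11, the protein-coding gene with most regions in the low window, held 1 region in hPSC and 4 in each hairpin list. The 4 protein-coding genes of the high window, LOC112268390 among them, held 0 regions in each list.

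CSMD2 made up 24.6% of the length, which its interval held in all 3 lists. It had 17.7% of the regions in hPSC (interval 9.20 to 29.5%), 26.5% in shLUC (interval 14.9 to 41.1%) and 18.5% in shHNRNPU (interval 9.26 to 31.4%). Its windows were 1.51 times denser than the gene in hPSC and 1.43 times denser in shHNRNPU. In shLUC the gene was 1.11 times denser than the windows. The windows themselves were rich, with 25.5 regions per Mb in hPSC, 18.0 in shLUC and 22.0 in shHNRNPU. ZNF362, which codes for a zinc-finger protein and had the most regions in the low window, held 6, 4 and 7 regions in hPSC, shLUC and shHNRNPU, and DLGAP3, which codes for a protein of the postsynaptic scaffold and had the most in the high window, held 4, 3 and 4.

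**Figure D2:**
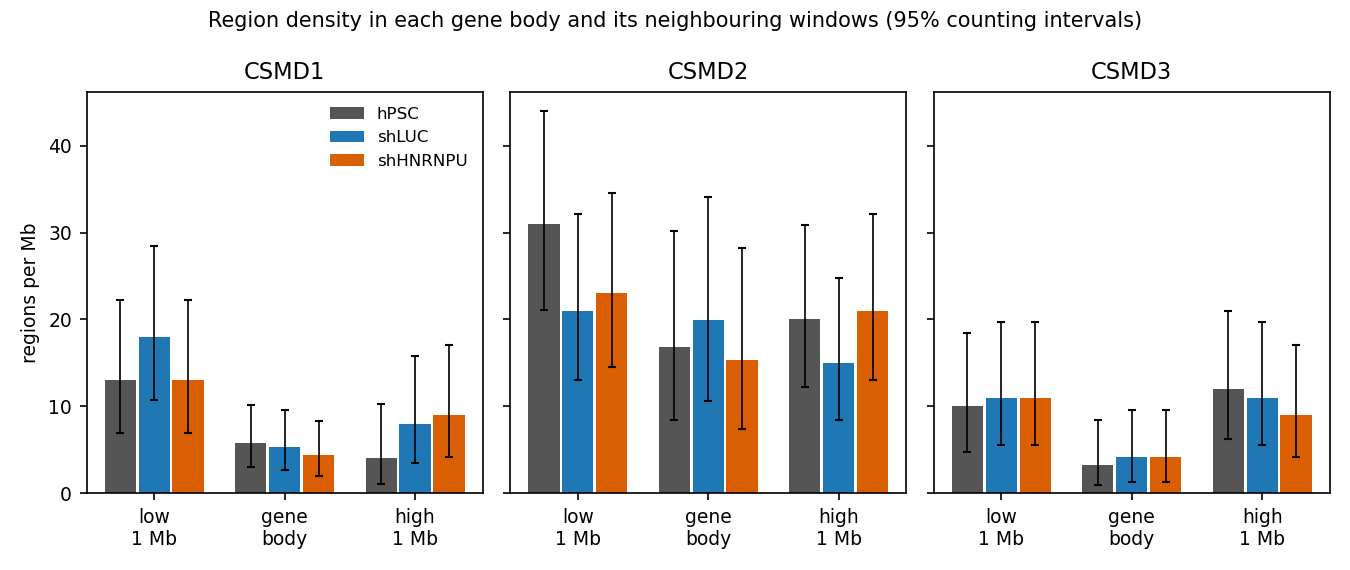
Regions per Mb in the gene body and in the 1 Mb windows on its low- and high-coordinate side for hPSC, shLUC and shHNRNPU; bars show the value of 1 list each and error bars the exact 95% binomial interval, which covers counting error only. CSMD3 lies below both of its windows in all 3 lists, CSMD1 below its low window, and CSMD2, at 15.3 to 19.9 per Mb, has 15 to 31 regions in each of its windows.

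A lower density than in the windows was common among long genes. Of the protein-coding genes of at least 500 kb with a region in their windows, 40.1% were at least 1.5 times less dense than the windows in hPSC, 30.9% in shLUC and 34.2% in shHNRNPU. At least 1.5 times denser were 7.32%, 11.8% and 13.4%. The median ratio of gene to windows was 0.753 in hPSC, 0.862 in shLUC and 0.836 in shHNRNPU. By this fold CSMD3 was lower in all 3 lists, CSMD1 in shLUC and shHNRNPU, and CSMD2 in hPSC only, where its ratio of 0.662 was just past the limit. CSMD1 in hPSC, with a ratio of 0.686, was just short of it. An interval wholly under the share of length was less common, at 9.55% of these genes in hPSC, where CSMD3 was one of them, and at 6.05% in shLUC and 5.75% in shHNRNPU, where CSMD1 was one of them. An interval wholly above it was found for 1.27% of the genes in hPSC, 1.91% in shLUC and 1.92% in shHNRNPU, and for none of the CSMD genes.

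Ranked by density among the 315 genes of at least 500 kb, CSMD2 stood high and the other CSMD genes low. Of the other 314 genes, 81.8% were less dense than CSMD2 in hPSC, 89.5% in shLUC and 80.6% in shHNRNPU. For CSMD1 these shares were 22.0%, 11.5% and 10.8%, and for CSMD3 they were 7.64%, 7.96% and 8.92%. The median density of the 315 genes was 9.47 regions per Mb in hPSC, 10.4 in shLUC and 9.40 in shHNRNPU, with a range of 0 to 28.2, 0 to 37.5 and 0 to 31.6. The counting interval held this median for CSMD2 in hPSC and shHNRNPU, for CSMD1 in hPSC and for CSMD3 in shHNRNPU. In these cases the gene could not be told from the median long gene. Restricting the comparison to genes of at least 1 Mb placed CSMD1 above 35.3% of them in hPSC.

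**Figure D3:**
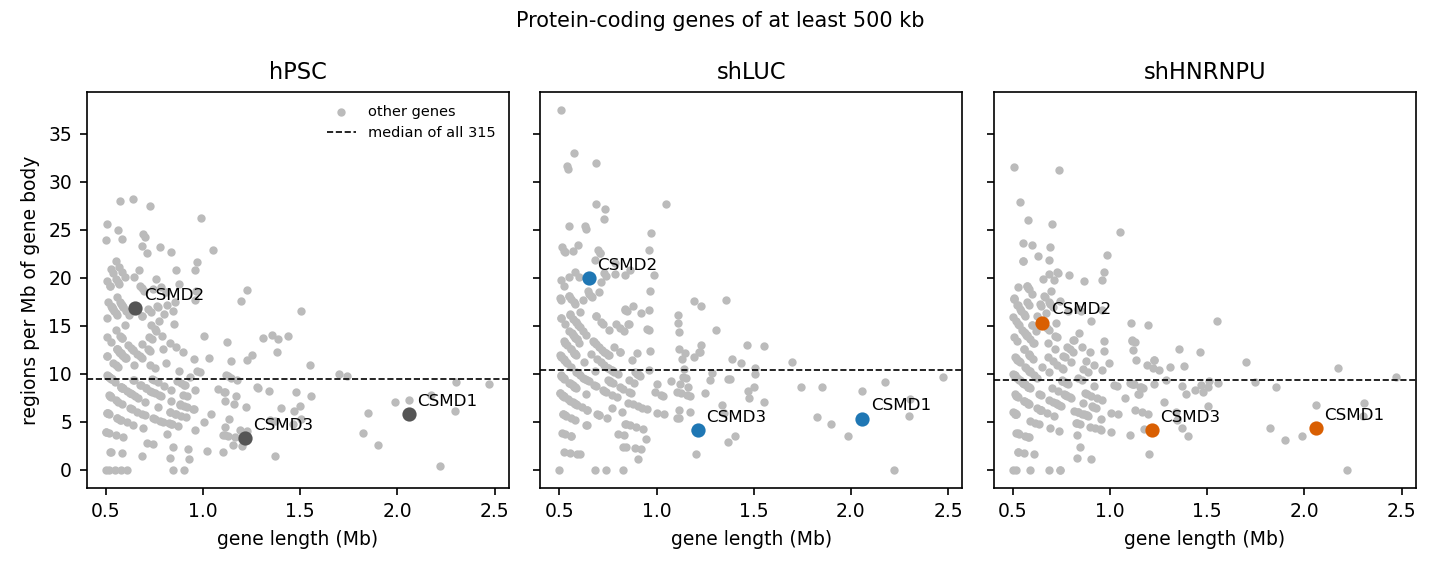
Regions per Mb of gene body against gene length in Mb for the 315 protein-coding genes of at least 500 kb, 1 panel per list; grey points are other genes, coloured points the CSMD genes and the dashed line the median. CSMD2 lies above the median in each panel, at 16.9, 19.9 and 15.3 regions per Mb, and CSMD1 and CSMD3 lie below it, between 3.29 and 5.83.

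Genes with the most similar densities were then sought among these long genes, by the distance over the 3 lists of log2(regions per Mb + 1). Nearest to CSMD1 was AGBL1, which codes for a carboxypeptidase that trims glutamates from tubulin (distance 0.23), with 6, 6 and 4 regions in hPSC, shLUC and shHNRNPU. It was followed by LRRC4C, a postsynaptic adhesion gene (0.28), with 7, 8 and 7 regions, and INPP4B, a phosphoinositide phosphatase gene (0.30), with 4, 5 and 4. Nearest to CSMD2 were AUTS2 (0.18), with 21, 21 and 18 regions, SHANK2, which codes for a postsynaptic scaffold protein (0.20), with 15, 16 and 13, and ERC1, an active-zone protein gene (0.22), with 8, 10 and 9. Nearest to CSMD3 were SYNE1, which codes for a nuclear envelope protein (0.21), with 2 regions in each list, PCDH15, a cadherin gene of the inner ear (0.39), with 7, 10 and 8, and LRP1B, a giant lipoprotein receptor gene (0.42), with 5, 9 and 6. CSMD1 and CSMD3 were 0.74 apart on this scale, whereas CSMD2 was 2.74 from CSMD1 and 3.34 from CSMD3. The lists are 3 points per gene and the hairpin lists share most of their regions, so this likeness is a description of density only.

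The next question was whether the CSMD genes lost or gained regions upon knockdown of HNRNPU. CSMD1 went from 11 regions in shLUC to 9 in shHNRNPU (log2 ratio -0.29, interval -1.74 to 1.12), CSMD2 from 13 to 10 (log2 ratio -0.38, interval -1.73 to 0.93) and CSMD3 stayed at 5 (log2 ratio 0, interval -2.12 to 2.12). No change of their counts was detectable at these numbers, and the intervals hold a halving as well as no change in each gene. The intervals treat the 2 lists as separate draws. They ignore that 20 of the 29 shLUC regions in the 3 genes overlapped a shHNRNPU region, so they do not measure change at matched sites. Together the 3 genes had 29 and 24 regions (log2 ratio -0.27, interval -1.12 to 0.56), and the whole lists had a log2 ratio of -0.12. None of the 3 passed a 1.5-fold difference, which 23.8% of the 1058 protein-coding genes with at least 5 shLUC regions passed downwards and 1.04% upwards. Among the 257 of these of at least 500 kb the shares were 13.2% and 1.95%. Between hPSC and shLUC none of the CSMD genes passed it either, with counts of 12 and 11 in CSMD1, 11 and 13 in CSMD2 and 4 and 5 in CSMD3. There 47.5% of the 1058 genes were lower in hPSC by this fold and 6.9% higher, or 28% and 12.5% of the 257 long genes. These comparisons share the shLUC list, and the genes were chosen by a minimum in shLUC, which favours lower counts in the other list.

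Although the numbers hardly moved, the regions themselves were partly exchanged. In CSMD3 all 5 shLUC regions were in the shHNRNPU list, with the same coordinates to the base. They lie on chromosome 8 at 112353043 to 112353442, 112386455 to 112386854, 113103971 to 113104370, 113299754 to 113300153 and 113308219 to 113308618. Among 257 long genes with at least 5 shLUC regions, 2.72% (7 genes, CSMD3 included) kept all of them with no addition. With 5 regions the interval of the kept share reaches from 47.8 to 100%, which holds the 72.5% kept over all genes of at least 500 kb.

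In CSMD2, 9 of 13 shLUC regions were kept (69.2%, interval 38.6 to 90.9%) and 1 region was in shHNRNPU only, at 34057239 to 34057638. The 4 that were in shLUC and not in shHNRNPU were at 33616190 to 33616589, 33624786 to 33625185, 33633120 to 33633519 and 34092432 to 34092831. The first 3 of these follow each other with no shared region between them, so the difference in CSMD2 was largely 1 cluster. In CSMD1, 6 of 11 were kept (54.5%, interval 23.4 to 83.3%), 5 were in shLUC only of the hairpin lists and 3 in shHNRNPU only. The 3 were at 3132912 to 3133311, 3215429 to 3215828 and 4234710 to 4235109. Over the whole list 70.8% of shLUC regions were kept, so none of the genes lay outside its counting error.

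Against untreated cells the picture was different, as it was for the lists as a whole. In CSMD3, 0 of 4 hPSC regions overlapped a region of either hairpin list, with an upper bound of 60.2%. Seen from the other side, 0 of its 5 shLUC regions overlapped an hPSC region, which held for 30.7% of the 257 long genes with at least 5 shLUC regions. In CSMD1, 2 of 12 hPSC regions overlapped a shLUC region (16.7%, interval 2.09 to 48.4%) and 1 of 12 a shHNRNPU region (8.33%, interval 0.211 to 38.5%). In CSMD2, 2 of 11 overlapped a shLUC region (18.2%, interval 2.28 to 51.8%) and 0 of 11 a shHNRNPU region (upper bound 28.5%). Both intervals of CSMD1 and those of CSMD2 hold the shares of the whole hPSC list, which were 14.0% with shLUC and 15.7% with shHNRNPU. All 3 genes together had 4 of 27 hPSC regions in shLUC and 1 of 27 in shHNRNPU. The 1 region shared by hPSC and shHNRNPU and not by shLUC was that at 3132912 to 3133311 in CSMD1.

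The regions of the 3 lists joined into 55 sites in the CSMD genes, namely 23 in CSMD1, 23 in CSMD2 and 9 in CSMD3. No site was in all 3 lists. That is 0 of 55, with an upper bound of 6.49%, and 4.75% of the 79766 sites of the genome and 3.51% of those in genes of at least 500 kb were in all 3 lists, so a deficit was not detectable at this number. The 4 sites in both hPSC and shLUC were thus all absent from shHNRNPU. In the genome 3790 sites of both these lists were also in shHNRNPU and 1807 were not. With 4 sites this difference was not tested. Sites of hPSC only made up 9 of 23 in CSMD1, 9 of 23 in CSMD2 and 4 of 9 in CSMD3 (39.1%, 39.1% and 44.4%), near the 40.1% of the genome. Sites of both hairpin lists and not hPSC made up 26.1% in CSMD1 (interval 10.2 to 48.4%), 39.1% in CSMD2 (interval 19.7 to 61.5%) and 55.6% in CSMD3 (interval 21.2 to 86.3%), against 30.1% in the genome. Hairpin delivery separates hPSC from both other groups, and preparation and calling are not described per group, so these cannot be told apart.

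**Figure D4:**
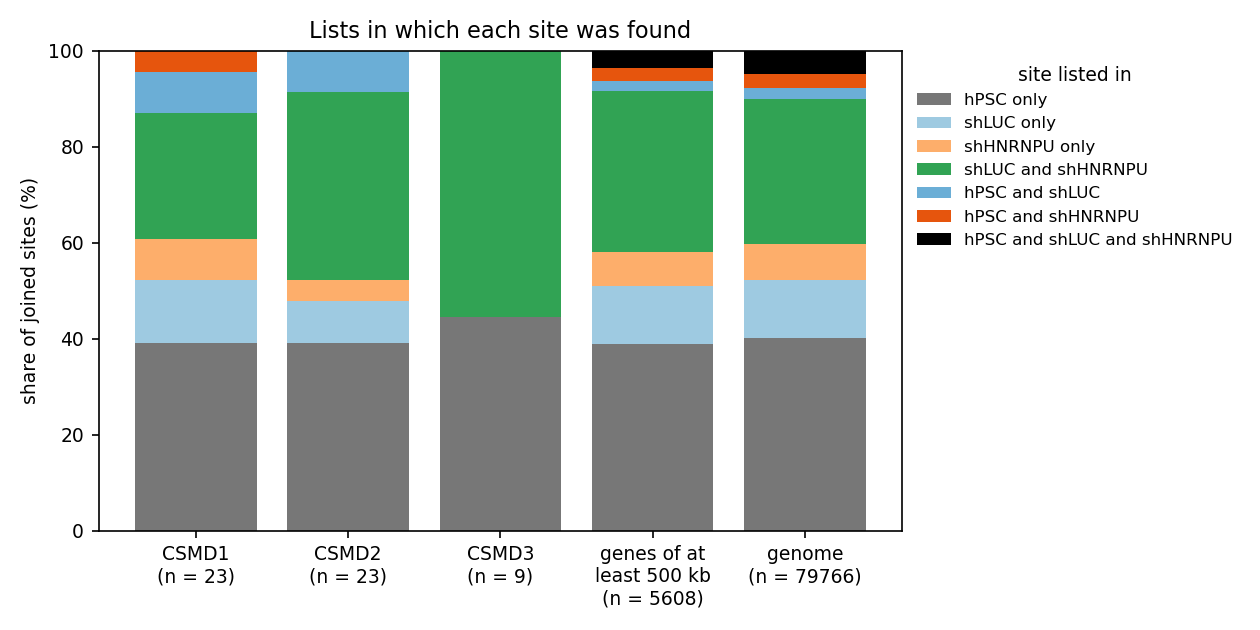
Share in percent of joined sites (overlapping regions of the 3 lists counted as 1) by the lists that hold them, for each CSMD gene, all protein-coding genes of at least 500 kb and the genome, with the number of sites under each bar. The hPSC-only part is between 38.9% and 44.4% in all bars, and the black part for sites in all 3 lists is missing from the CSMD genes.

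Regions of the hPSC list were spread almost evenly over 5 equal parts of each gene. They numbered 2, 3, 3, 2 and 2 in CSMD1, 3, 2, 2, 2 and 2 in CSMD2, and 1, 1, 1, 1 and 0 in CSMD3. The longest stretches without a region were longer in the hairpin lists than in the untreated list. In CSMD1 the longest stretch without a region was 684.4 kb in shLUC (3226902 to 3911303) and 695.5 kb in shHNRNPU (3215829 to 3911303), or 33.2% and 33.8% of the gene. The hPSC list had 5 regions within each of these stretches. Its own longest stretch was 292.9 kb (3546877 to 3839788), which was empty in all 3 lists. In CSMD3 the longest stretch was 717.1 kb in both hairpin lists (112386855 to 113103970), or 59.1% of the gene, and hPSC had 3 of its 4 regions there. These were the 8th and 10th longest such stretches among the 315 long genes in shLUC and shHNRNPU, and those of CSMD1 the 9th and 12th. The median over these genes was 29.9% of the gene in shLUC and 32.4% in shHNRNPU. In hPSC the longest stretch of CSMD3 was 377.6 kb, from its last region to the high-coordinate end of the gene, and held 3 regions of each hairpin list. That of CSMD2 in hPSC was 143.3 kb (33668424 to 33811749) and also held 3 regions of each hairpin list.

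Median gaps were shortest in CSMD2 in each list. There consecutive regions were a median of 57.1 kb apart in hPSC. Their median distance was shorter in the hairpin lists, at 24.7 kb for shLUC and 44.5 kb for shHNRNPU. Between CSMD1 and CSMD3 the order of the gaps was not the same in all lists. The same medians were 143.8, 124.9 and 161.3 kb in CSMD1 and 224.1, 114.2 and 114.2 kb in CSMD3. The closest pair in CSMD2 was 4.56 kb apart in both hairpin lists, at 34077008 and 34081967, and was the only gap under 5 kb in the CSMD genes in any list. Some inner parts of the genes were bare in the hairpin lists. Of 5 equal parts of CSMD1 counted from the low end, the second held 0 regions in shLUC and shHNRNPU and 3 in hPSC, while the middle part held 2 in each hairpin list and 3 in hPSC. The third part of CSMD2 held 0 in both hairpin lists and 2 in hPSC, with 224.1 kb free of regions in the hairpin lists (33759778 to 33983853) and 3 hPSC regions in that stretch. Parts 2 and 3 of CSMD3 held 0 in the hairpin lists and 1 each in hPSC. Over all genes of at least 500 kb the 5 parts held 21.9, 19.1, 18.4, 18.4 and 22.2% of the shLUC regions, so the middle was slightly poorer there. The positions were compared by count only, since the hairpin lists share regions and each gene is 1 case.

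At the ends of the genes the lists also differed. In CSMD1 both hairpin lists had a region at 4991387 to 4991786, 3.13 kb inside the high-coordinate end, and the next one 13.2 kb beyond it, whereas hPSC had none from 139.8 kb inside to 612.1 kb beyond that end. In CSMD3 an hPSC region lay 0.782 kb beyond the high-coordinate end (113437721 to 113438120), where the nearest hairpin regions were 128.3 kb inside and 354.2 kb beyond. At the low end of CSMD3 the nearest outer region was 4.68 kb away in hPSC and 13.2 kb away in both hairpin lists. In CSMD2 hPSC had a region 2.52 kb inside the start of the gene, and the nearest inside was 73.0 kb away in shLUC and 83.5 kb away in shHNRNPU. The nearest region beyond the low-coordinate end of CSMD2 was 4.51 kb away in both hairpin lists and 41.1 kb away in hPSC, the latter being the region over the ZSCAN20 start printed above.

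The centre of each of the 80 regions was more than 1 kb from any protein-coding gene end, a comparison chosen after the lists were seen. That is 0 of 27 in hPSC (exact upper bound 12.8%), 0 of 29 in shLUC (11.9%) and 0 of 24 in shHNRNPU (14.2%), and the shares of the whole lists were 19.3%, 13.0% and 14.4%, the last close to its bound. In all genes of at least 500 kb the shares were 5.59%, 4.63% and 5.23%, within the bounds of the CSMD genes. Only 0.255% of the CSMD bodies lies that close to such an end, so hardly any of these regions could have been counted there. No depletion is read from the counts of 0. Regions beyond a body are not members, so the hPSC region 0.782 kb beyond CSMD3 is not counted. The shares of the whole lists cover both sides of gene ends. Other annotated genes were bare as well where they lie inside the bodies. The 20 genes that overlap the CSMD bodies, among them HMGB4 and CSMD2-AS1 in CSMD2 and MIR2053 in CSMD3, cover 7.06% of them, and these stretches held 0 regions in the 3 lists. The 80 regions are few, and the hairpin lists share most of theirs. No such count was made for other long genes, so whether this is particular to the CSMD genes was not tested. One of the 20, the lncRNA gene LOC105377785 (named after its values were seen), reaches out of CSMD1 into its low window and held 2, 4 and 4 regions there in hPSC, shLUC and shHNRNPU.

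The related genes of the family were looked up last. Of 29 genes whose proteins share CUB or sushi domains with the CSMD proteins, 23 held at least 1 region in hPSC, 21 in shLUC and 19 in shHNRNPU, and 3 held none in any list (C4BPA, C4BPB and C1R). Among all 20033 protein-coding genes 57.8%, 52.7% and 52.0% held a region. The 29 genes had a median length of 66.2 kb, and these shares were not matched for gene length, so no enrichment is read from them. Over the genome the lists held 12.99, 12.75 and 11.75 regions per Mb in hPSC, shLUC and shHNRNPU. Together the 29 genes had 38, 39 and 41 regions, or 14.0, 14.4 and 15.1 per Mb, which is above the density of CSMD1 and CSMD3 and below that of CSMD2 in each list. These values lay within the interval of CSMD2 in each list, so their difference from CSMD2 was within counting error. Between shLUC and shHNRNPU 8 of the 29 genes had fewer regions, 6 more and 15 the same number, the 3 without any region included. Only SEZ6L and TLL2 held 5 regions in any list. SEZ6L, one of the neuronal SEZ6 genes with the same domains as the CSMD genes, held 1 region in hPSC, 3 in shLUC and 5 in shHNRNPU over 214.1 kb. TLL2, which codes for a tolloid-like protease, held 5, 3 and 5 regions over 149.3 kb. Of 19 genes of complement components, which are short (median 20.6 kb), 4 held a region in hPSC, 7 in shLUC and 5 in shHNRNPU, and 11 held none in any list. C5, named after its values were seen, held 4 regions in each list. Between shLUC and shHNRNPU 3 of the complement genes had fewer regions, 1 more and 15 the same number, the 11 without any region included. A gene without a shLUC region could not lose one. The same shares over all protein-coding genes were not computed, so no stability upon knockdown is read from either gene list.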

How the data were processed

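Matrix-attached DNA of H1 cells was sequenced as paired-end reads in 6 samples. The authors deposited 1 list of regions for each of the 3 groups, with start and end and a score column that holds 0 throughout. The submitters' processing notes name cutadapt, Bowtie2, SAMtools, MACS2, deepTools and the build hg38, without role, order or version. The calling threshold, the use of the input sample and whether both samples of a group were pooled are not given in the sources used here, and the paper supplied describes other experiments. The list of each group was found through the labels. The labels give the molecule as RNA, while their protocol describes DNA.

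Regions were joined to the RefSeq gene table (GRCh38.p14) by overlap of at least 1 bp. Windows of 1 Mb were set next to each gene, and a region that reached into the gene was counted there only. Fold differences between lists were called past 1.5-fold among genes with at least 5 shLUC regions. All intervals are exact 95% binomial intervals. A count of 0 was bounded by this interval. Named were the CSMD genes, the 3 genes nearest to each in density, relatives with at least 5 regions in a list and the gene with most regions in each window. Members, gene lists and rules were chosen with earlier results of these data known. Alternatives were region centres, merging below 1 kb, windows of 500 kb and 2 Mb or of 1 side, 50% overlap or proximity within 5 kb, list totals, and genes of at least 1 Mb. Counting was tested on simulated lists. The code ran in Python 3.11.15 (matplotlib 3.10.9, scipy 1.17.1, pandas 2.3.3, numpy 2.4.6).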

Additional observations from a re-analysis of the deposited data

How the results depend on the processing

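Of 171 values recomputed under the alternatives, 167 stayed within the counting interval of the value reported (for numbers of regions, within 1.5 times) and 4 moved out of it. All 4 were ranks by density among genes of at least 1 Mb in place of 500 kb. There CSMD1 was denser than 35.3% of the genes in hPSC, and CSMD2 than 95.7% in hPSC, 98.6% in shLUC and 97.1% in shHNRNPU; fewer and longer genes are compared by construction. The intervals are wide, so staying within them is a weak statement. The log2 density of CSMD1 over its windows in hPSC ranged from -1.24 (windows of 2 Mb, where the interval of -2.28 to -0.32 left out 0) to 0.54 (high-coordinate window alone) against -0.54, and was 0.22 with windows of 500 kb. That of CSMD2 in shLUC was -0.07 with the low-coordinate window alone against 0.15. The other 7 kept their sign. For CSMD3 in shLUC the interval left out 0 with windows of 2 Mb only (log2 density -1.38, interval -3.08 to -0.05). No paired analysis was possible because the 2 samples of a group have no separate values, and leaving out a replicate was not possible for the same reason. Read depth is unknown, so a region missing from a list may reflect depth or threshold, which was not tested.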
